A study of Homo sapiens with 9 samples.

Results

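The 10 genes described here are feedback inhibitors of growth factor and stress signaling in uCaco-2, the undifferentiated, proliferating form of the human colon adenocarcinoma line Caco-2. They are the dual-specificity phosphatases DUSP1, DUSP4, DUSP5, DUSP6, DUSP8, DUSP10 and DUSP16, the Sprouty genes SPRY2 and SPRY4, and SPRED1. They were chosen by symbol from the 60591 symbols of the count table, and all 10 were present and passed the filter on low counts. Cells received 300 μM cobalt (II) chloride (CoCl2), 5 μM of an oxyquinoline derivative (OD) or neither (control) for 24 h, and all 3 conditions contained 0.5% DMSO. Both agents are chemical activators of the hypoxia-inducible factor (HIF) pathway. Each condition had 3 biological replicates. Every replicate came from the same cell line at a single time point, so the values describe Caco-2 in culture, and differentiated cells were not analysed here.

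Mitogen-activated protein (MAP) kinases are switched on when a threonine and a tyrosine in their activation loop are phosphorylated. Dual-specificity phosphatases of the MAP kinase phosphatase group remove both phosphates. Several of them are transcribed in response to the very kinases they switch off, which makes their mRNA a feedback arm of the ERK, p38 and JNK pathways. Sprouty and SPRED proteins act higher up, between growth factor receptors and RAS, and Sprouty genes are themselves induced by ERK signaling. In the intestinal epithelium the ERK branch is tied to crypt proliferation.

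Libraries held 15998136 to 24209427 counts, and no pair of replicates was alike within counting error (chi-square over its degrees of freedom 1.82 to 3.32). TMM factors, which scale for shifts in library composition, were 0.770 to 0.795 with CoCl2 and 1.11 to 1.15 in the other 6 libraries. The choice bears on every CoCl2 value below, since the median gene, at -0.049 on the log2 scale with CoCl2 under TMM, lay at -0.55 when libraries were scaled by size alone. Levels are given as CPM, counts scaled to a common library size with the TMM factor. Of 8 genes known to respond to hypoxia, 7 were tested, and 7 were upregulated with CoCl2 (5 under library-size scaling) and 6 with OD. Of 10 markers of intestinal epithelium, 9 were counted in every library, and CDX1 had no count in any. Their summed level was 11200 to 11720 CPM in control, 13550 to 14510 CPM with CoCl2 and 10610 to 11170 CPM with OD. The sum was carried by KRT8 and KRT18. Of the 9 markers, 2 were downregulated with CoCl2, as were 23.4% of all tested genes. They were VIL1 (log2 fold change -2.45), which encodes the microvillar protein villin, and KRT20 (-1.44), a keratin of differentiated cells. KRT20 held only 17 to 37 counts in CoCl2 libraries. The median of the 9 was 0.28 with CoCl2 and turned to -0.22 under library-size scaling. The 12 markers of fibroblasts, leukocytes and endothelium summed to 25.6 to 32.8 CPM in any library, with COL1A1 at up to 22.4 CPM, and the leukocyte gene PTPRC never exceeded 3 counts. The part of these shifts in the results below was not tested, and in bulk RNA fewer cells of a type and less RNA per cell cannot be told apart.

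Genes were called differentially expressed at an adjusted p under 0.05 by edgeR's quasi-likelihood test over all 9 libraries, provided that the fold change was also above 2 in either direction. With CoCl2, 5 of the 10 genes were upregulated (DUSP1, DUSP5, DUSP6, DUSP10 and SPRY4) and DUSP16 was downregulated, against 43.2% of all tested genes called in either direction, 19.9% higher and 23.4% lower. With OD, 5 were upregulated (DUSP1, DUSP4, DUSP5, DUSP10 and SPRY4) and none of the 10 was downregulated, against a background of 13.3%, 9.09% higher and 4.16% lower. DUSP16, SPRY2 and SPRED1 were lower with OD at an unadjusted p under 0.05 without reaching the fold threshold, and DESeq2 likewise called none of the 10 lower. The median log2 fold change of the 10 genes was 0.97 with CoCl2 and 0.96 with OD, beside -0.049 and -0.010 over all tested genes. Under library-size scaling it was 0.47 with CoCl2 and 1 with OD, beside -0.55 and 0.029. That scaling also gave 4 of the 10 higher and 2 lower with CoCl2. Set directly against each other, the treatments gave 3 calls. DUSP1 and DUSP6 were higher and DUSP8 was lower with CoCl2 than with OD, where 41.3% of all tested genes were called, 17.5% higher and 23.8% lower. This balance turned under library-size scaling to 1 higher (DUSP1) and 3 lower (DUSP4, DUSP8 and DUSP16). The libraries of each treatment and of control did not overlap in CPM for any of the 10 genes, against a background of 83.4% of genes with CoCl2 and 68% with OD, and the treatments did not overlap for 8 of the 10, against 83.8%. With the adjusted p alone and no fold threshold, 9 of the 10 passed with CoCl2, 10 with OD and 8 between the treatments, where the backgrounds were 83.2%, 65.6% and 83.5%. By that measure the counts lie near the background for CoCl2 and for the direct comparison. Since both treatments are compared with the same 3 control libraries, their values are set side by side and no agreement between them is drawn.

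**Figure D1:**
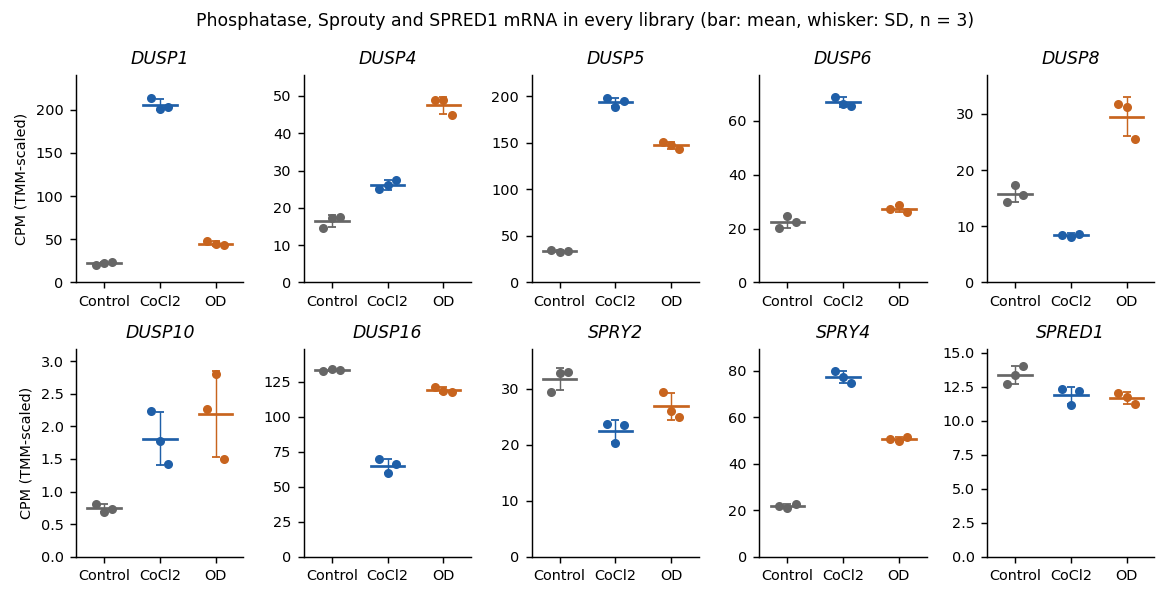
CPM of the 10 genes (vertical axes, linear from 0) in each of the 9 libraries by condition, with the mean as a bar and the SD as a whisker (n = 3). DUSP1 reached 201 to 213 CPM with CoCl2 against 42.9 to 47.6 CPM with OD, while DUSP8 lay below control with CoCl2 and above it with OD.

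DUSP1 and DUSP8 stood at opposite ends of the direct comparison, DUSP1 as the gene most in favour of CoCl2 and DUSP8 as the gene most in favour of OD. Both were among the 8 genes of the 10 that matched an entry of the RefSeq promoter table (GRCh38.p14), and DUSP4 and DUSP5 had none. The 250 bases before the RefSeq start are shown for this pair because both windows hold a complete cyclic AMP response element, TGACGTCA, printed in capitals. The window of DUSP1 is chr5:172771196-172771445 and that of DUSP8 is chr11:1572272-1572521, both read on the minus strand from 5′ to 3′.
DUSP1: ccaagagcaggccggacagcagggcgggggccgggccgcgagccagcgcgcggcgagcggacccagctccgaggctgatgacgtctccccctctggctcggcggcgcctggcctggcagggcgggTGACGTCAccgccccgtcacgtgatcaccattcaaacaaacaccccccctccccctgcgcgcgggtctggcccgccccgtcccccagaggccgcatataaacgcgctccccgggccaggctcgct
DUSP8: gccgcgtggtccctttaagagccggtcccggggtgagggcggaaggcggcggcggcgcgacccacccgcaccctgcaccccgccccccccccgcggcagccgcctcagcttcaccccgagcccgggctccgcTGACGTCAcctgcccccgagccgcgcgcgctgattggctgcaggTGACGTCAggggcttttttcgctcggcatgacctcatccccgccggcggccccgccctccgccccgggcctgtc
TGACGTCA was searched on both strands, which for this palindrome are the same, and occurred in 1.65% of 35116 promoter windows of equal length. It began 125 bases before the start of DUSP1 and 118 and 74 bases before that of DUSP8. The other 6 genes with an entry did not hold it in any of their windows. Some windows of DUSP10 and SPRY2, and the only window of SPRY4 (chr5:142324248-142324497), lie inside the annotated gene. For SPRY4 the bases before the outermost annotated start were therefore not searched. The shorter TGACG, which lies inside each TGACGTCA, occurred in 21.2% of all windows and was also present in the windows of SPRY2 and SPRY4. The HIF core sequence ACGTG occurred in 18.5% of windows and, among these genes, in that of DUSP1, where both strands of a single CACGTG carry it. The alternative core GCGTG occurred in 32.2% of windows and in those of DUSP6, DUSP8 and DUSP10. TGANTCA, the AP-1 type of site, was in 6.57% of all windows and in none of the 11 windows of these 8 genes. The same element stands before a gene that was higher and a gene that was lower with CoCl2 than with OD. Whether the element had a part in either value was not tested.

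DUSP1 is an inducible nuclear phosphatase that acts on p38, JNK and ERK, and it is encoded at chromosome 5, 172768096 to 172771195, minus strand (GRCh38, GENCODE release 44). Control libraries held 20.8, 22.8 and 23.7 CPM, CoCl2 libraries 213, 201 and 202 CPM, and OD libraries 47.6, 44.6 and 42.9 CPM. All CoCl2 libraries were far above all OD libraries, which in turn were all above control. CoCl2 raised it by 3.20 on the log2 scale (standard error 0.056, adjusted p = 4.02e-52 by edgeR), a 9.17-fold rise and the largest among the 10 genes. With OD the rise was 1.01 (standard error 0.061, adjusted p = 1.04e-22), a 2.01-fold rise that sits on the fold threshold and dropped below it, to 0.97, without control replicate 1 or without OD replicate 1. Between the treatments the log2 difference was 2.19 (standard error 0.051, adjusted p = 1.89e-45).

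DUSP5 encodes a nuclear phosphatase selective for ERK, and its gene lies at chromosome 10, 110497907 to 110511533, plus strand. Its level was 35.1, 33.2 and 34.1 CPM in control, 198, 189 and 195 CPM with CoCl2 and 151, 148 and 144 CPM with OD. It had the largest OD response of the 10 and was raised 5.69-fold by CoCl2 and 4.32-fold by OD. CoCl2 raised it by 2.51 on the log2 scale (standard error 0.050, adjusted p = 3.03e-49 by edgeR) and OD by 2.11 (standard error 0.050, adjusted p = 4.02e-44). CoCl2 exceeded OD by 0.39 on the log2 scale (adjusted p = 9.72e-13), and this order turned to -0.15 under library-size scaling.

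DUSP4, another inducible nuclear phosphatase, is encoded at chromosome 8, 29333064 to 29350684, minus strand. Control libraries held 14.6, 17.2 and 17.4 CPM, CoCl2 libraries 25.0, 26.1 and 27.6 CPM, and OD libraries 48.8, 49.0 and 44.9 CPM. Here the order of the treatments was the opposite of that for DUSP1, with every OD library above every CoCl2 library. OD raised DUSP4 2.90-fold (log2 fold change 1.54, standard error 0.068, adjusted p = 2.01e-29 by edgeR). The CoCl2 difference from control was 0.68 in log2 (standard error 0.076, adjusted p = 3.34e-12), short of the fold threshold, and only 0.17 under library-size scaling. Between CoCl2 and OD the log2 difference was -0.86 (standard error 0.065, adjusted p = 6.42e-19), and under library-size scaling it was -1.41 and called.

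DUSP6 is the cytoplasmic phosphatase most closely tied to ERK and a standard readout of ERK output. It is encoded at chromosome 12, 89347235 to 89352501, minus strand, and 28.6% of its exonic bases are overlapped by a gene on the opposite strand, whose reads cannot be told apart here because the strand setting of the counting was not given. Its level was 20.3, 24.8 and 22.6 CPM in control, 69.1, 66.3 and 65.5 CPM with CoCl2 and 27.4, 28.6 and 26.3 CPM with OD. CoCl2 raised it 2.96-fold (log2 fold change 1.57, standard error 0.064, adjusted p = 2.17e-32 by edgeR). The OD libraries lay just above the control libraries without overlap, at a log2 fold change of 0.28 (standard error 0.068, adjusted p = 0.000254). The treatments differed by 1.28 (standard error 0.061, adjusted p = 8e-29), or by 0.74 under library-size scaling, which is no longer past the fold threshold.

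DUSP8, DUSP10 and DUSP16 form the branch that prefers p38 and JNK, and the 3 genes took 3 different courses. DUSP8 is encoded at chromosome 11, 1554051 to 1572271, minus strand. It held 14.4, 17.3 and 15.5 CPM in control, 8.46, 8.05 and 8.71 CPM with CoCl2 and 31.7, 31.3 and 25.5 CPM with OD. It was below control in every CoCl2 library and above control in every OD library. Neither change passed the fold threshold, the log2 values by edgeR being -0.90 with CoCl2 (standard error 0.10, adjusted p = 3.68e-12) and 0.91 with OD (standard error 0.078, adjusted p = 4.14e-16). The first passed it under library-size scaling (-1.40) and the second without OD replicate 3 (1.01). The direct difference of CoCl2 from OD did pass, at -1.81 (standard error 0.091, adjusted p = 2.09e-27), a 3.51-fold lower level with CoCl2.

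DUSP16 is encoded at chromosome 12, 12473282 to 12562863, minus strand, and by length it was the most abundant of the 10 in control cells. Its level was 132 to 134 CPM in control, 69.6, 59.7 and 66.0 CPM with CoCl2 and 121, 119 and 118 CPM with OD. All CoCl2 libraries were far below control, and all OD libraries lay slightly below control. In log2 the CoCl2 difference was -1.03 (standard error 0.049, adjusted p = 1.5e-28 by edgeR). This call is at the edge of the fold threshold, since the value was -0.98 with RLE factors and -0.97 without CoCl2 replicate 2. With OD it was -0.16 (standard error 0.046, adjusted p = 0.00161). CoCl2 differed from OD by -0.87 (standard error 0.049, adjusted p = 8.9e-25), and by -1.41 under library-size scaling, which is called. DUSP10, at chromosome 1, 221701424 to 221742089, minus strand, was the rarest of the 10, with 13 to 15 counts in control libraries, 23 to 36 with CoCl2 and 28 to 63 with OD. CoCl2 raised it by 1.27 in log2 (standard error 0.28, adjusted p = 5.52e-05 by edgeR) and OD by 1.58 (standard error 0.26, adjusted p = 2.7e-07). Under library-size scaling, the value with CoCl2 was 0.77 and no longer called. With glmTreat, which tests against the fold threshold itself, DUSP10 was not called with CoCl2 or with OD. The CoCl2 and OD libraries of DUSP10 overlapped. Their log2 difference of -0.31 did not pass the test (adjusted p = 0.193), and its 95% interval of -0.74 to 0.13 holds both directions at this depth.

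SPRY4 and SPRY2 encode membrane-associated inhibitors of receptor signaling to RAS and ERK, and their values lay on opposite sides of control. SPRY4 is encoded at chromosome 5, 142310427 to 142326455, minus strand. It held 21.7, 21.0 and 22.8 CPM in control, 79.9, 77.2 and 74.7 CPM with CoCl2 and 50.5, 49.6 and 51.5 CPM with OD. The 3 conditions were separate, with CoCl2 highest. CoCl2 raised SPRY4 3.53-fold (log2 fold change 1.82, standard error 0.060, adjusted p = 2.18e-37 by edgeR) and OD 2.31-fold (1.21, standard error 0.061, adjusted p = 8.38e-27). The difference between the treatments was 0.61 (standard error 0.053, adjusted p = 1.52e-16) and shrank to 0.066 under library-size scaling.

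SPRY2 is encoded at chromosome 13, 80335976 to 80341126, minus strand. Its level was 29.5, 32.8 and 32.9 CPM in control, 23.8, 20.3 and 23.4 CPM with CoCl2 and 29.47, 26.1 and 25.0 CPM with OD. The highest OD library was less than 0.1 CPM below the lowest control library. The log2 fold changes of SPRY2 by edgeR were -0.49 with CoCl2 (standard error 0.073, adjusted p = 1.66e-08) and -0.24 with OD (standard error 0.068, adjusted p = 0.00172), both short of the fold threshold. Under library-size scaling the first was -0.99. Because the number of SPRY4 reads per SPRY2 read is taken within a library, it does not depend on the scaling, and it was 0.641 to 0.737 in control, 3.19 to 3.81 with CoCl2 and 1.71 to 2.06 with OD. The 3 ranges did not overlap.

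SPRED1 encodes an adaptor that brings the RAS inhibitor neurofibromin to the membrane, and its gene lies at chromosome 15, 38252836 to 38357249, plus strand. It held 12.7 to 14.02 CPM in control, 11.1 to 12.3 CPM with CoCl2 and 11.2 to 12.1 CPM with OD. In log2 it differed from control by -0.16 with CoCl2 (95% interval -0.34 to 0.014, adjusted p = 0.0892 by edgeR) and -0.19 with OD (95% interval -0.36 to -0.021, adjusted p = 0.0484). The treatments did not differ by the test, at 0.026 (95% interval -0.15 to 0.21, adjusted p = 0.791), and this value turned to -0.52 under library-size scaling, where the difference of CoCl2 from control was -0.67.

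**Figure D2:**
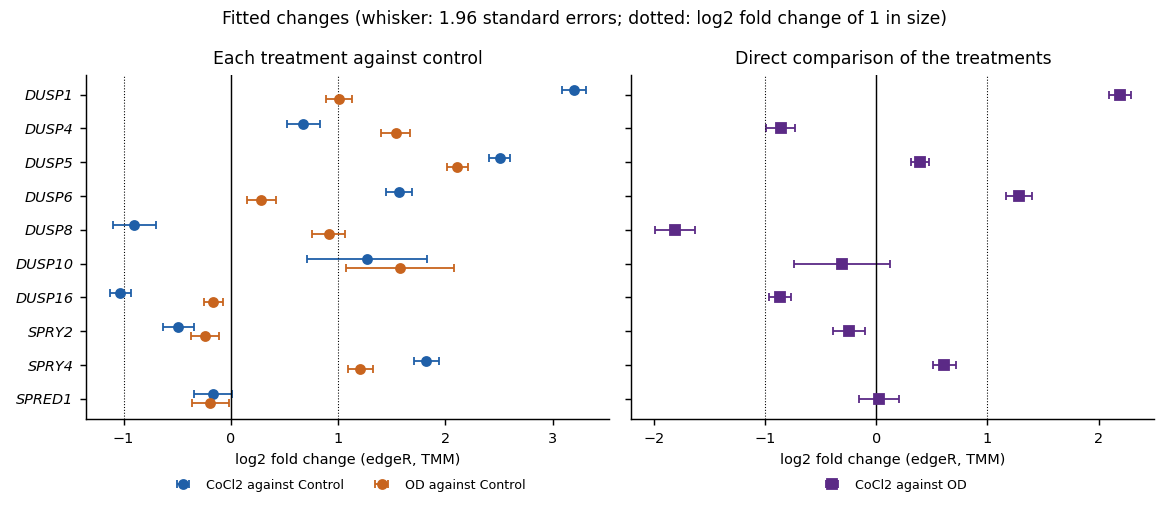
Log2 fold changes of the 10 genes from the edgeR fit (horizontal axes), on the left for CoCl2 and OD against control and on the right for CoCl2 against OD, with whiskers of 95% intervals and dotted lines at the fold threshold. DUSP8 lies on opposite sides of 0 for the 2 treatments, and the whiskers of DUSP10 are the widest.

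Per kilobase of exon the 10 genes could be ranked within each condition. The length was that of all annotated exons of a gene merged, whether or not each was expressed. Ranks between genes depend on this choice, and no other length was tried. In control cells DUSP16 led with 18.7 CPM per kb, followed by DUSP5 (13.5), DUSP1 (11.1), SPRY2 (9.88), DUSP6 (5.84), SPRY4 (3.34), DUSP8 (3.17), DUSP4 (2.26), SPRED1 (1.73) and DUSP10 (0.262). Only SPRY4 and DUSP8 overlapped among these neighbours. With CoCl2, DUSP1 (102 CPM per kb) and DUSP5 (76.5) led, DUSP6 (17.4) and SPRY4 (11.8) came next, and DUSP16 (9.13) followed, with no overlap between any neighbours. With OD, DUSP5 led alone (58.2 CPM per kb) ahead of DUSP1 (22.4) and DUSP16 (16.7). SPRY2 (8.35) overlapped SPRY4 (7.71) in that condition, and DUSP4 (6.54) overlapped DUSP8 (5.95).

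The make-up of the 7 phosphatases, as shares of their summed CPM per kb, does not depend on the scaling between libraries. The size of each share does depend on the merged exon length of each gene. In control cells DUSP16 took 33.7% to 34.9%, DUSP5 23.5% to 26.1% and DUSP1 19.4% to 21.2%. With CoCl2, DUSP1 took 48.0% to 48.7%, DUSP5 35.9% to 36.7% and DUSP16 only 4.07% to 4.49%. With OD, DUSP5 took 49.1% to 50.1%, DUSP1 18.7% to 19.5% and DUSP16 up to 14.6%. The share of DUSP1 with OD overlapped its share in control, although its level was higher, while the share of DUSP5 grew. DUSP4 took 3.78% to 4.32% in control, 1.58% to 1.81% with CoCl2 and 5.46% to 5.67% with OD. DUSP8 took 5.44% to 6.25% in control, 0.784% to 0.837% with CoCl2 and 4.54% to 5.32% with OD. The sum of the 7 in CPM was 238.5 to 249.8 in control, 551.8 to 585.5 with CoCl2 and 402 to 430 with OD, without overlap. Unlike the shares, this sum depends on the scaling. In CPM scaled by library size it was 263.9 to 278.5 in control, 437.8 to 450.0 with CoCl2 and 461.0 to 488.5 with OD, so that the order of the treatments reversed.

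**Figure D3:**
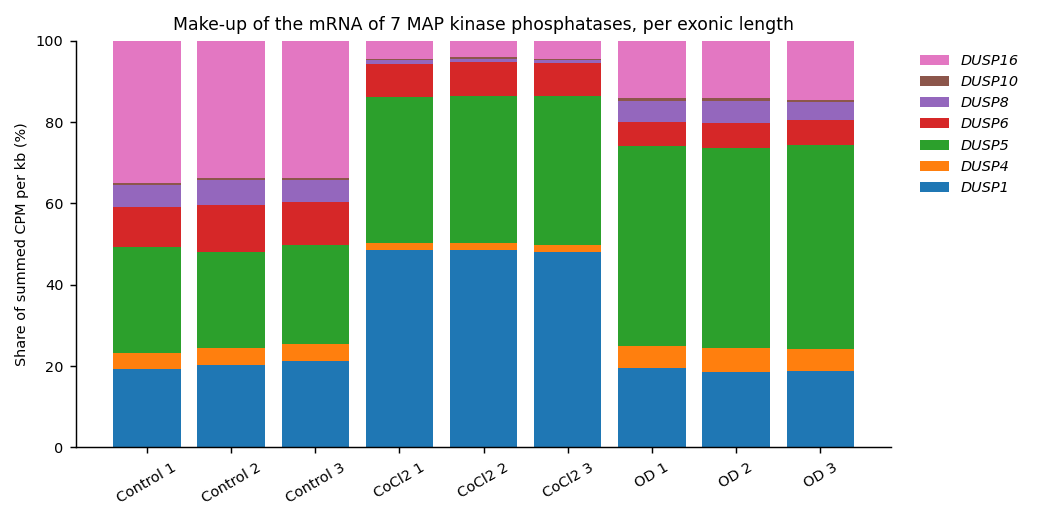
Share of each of the 7 phosphatase genes in their summed CPM per kb (vertical axis, percent) in each of the 9 libraries. DUSP16 holds 33.7% to 34.9% of each control bar and 4.07% to 4.49% of each CoCl2 bar, where DUSP1 and DUSP5 hold most of the rest.

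The order of the CoCl2 values among the genes was kept by the other scalings, but their size was not. With RLE factors the value of DUSP1 was 3.25 and that of DUSP8 -0.85, and with DESeq2 they were 3.21 and -0.88. With library size alone they shifted down together by about the shift of the median gene, which brought DUSP8 past the fold threshold (-1.40) and DUSP10 short of it (0.77), and left DUSP1 at 2.69, DUSP5 at 2.00, SPRY4 at 1.32 and DUSP6 at 1.06, all still called.

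**Figure D4:**
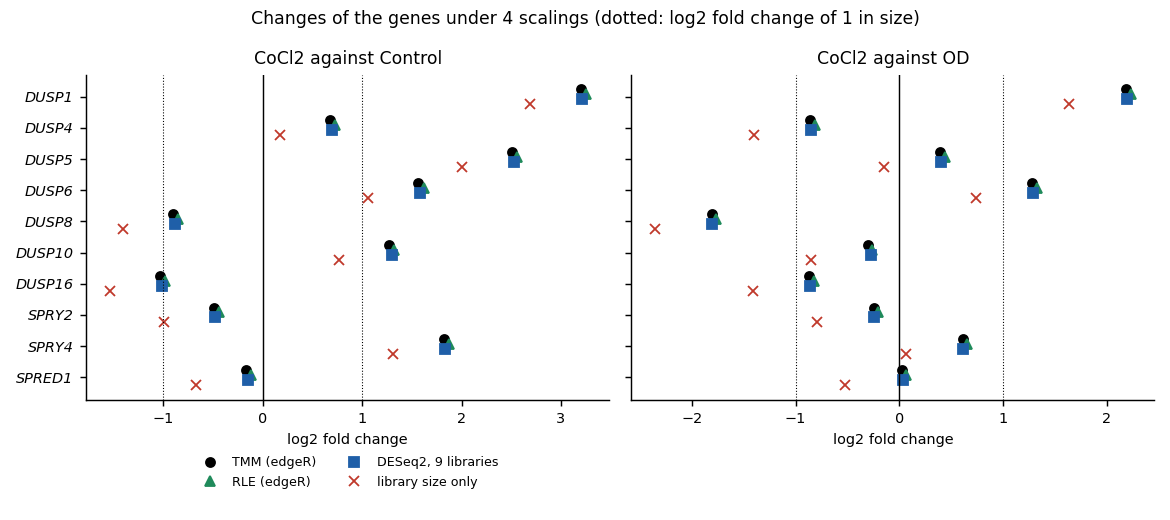
Log2 fold changes of the 10 genes with CoCl2 against control and against OD (horizontal axes) under TMM, RLE, DESeq2 on 9 libraries and library size only. The library-size values lie to the left of the others for every gene, and DUSP5 and SPRED1 cross 0 in the comparison with OD.

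The remaining genes of the families were DUSP2, DUSP7 and DUSP9, and SPRY1, SPRY3, SPRED2 and SPRED3. Of the 3 phosphatases, 2 were called lower with CoCl2, where 23.4% of all tested genes were, and 1 higher with OD, where 9.09% were. Under library-size scaling all 3 were called lower with CoCl2. DUSP9, a cytoplasmic phosphatase selective for ERK, held 5.74 to 6.13 CPM in control, 2.01 to 2.86 CPM with CoCl2 and 19.4 to 20.8 CPM with OD. It fell with CoCl2 (log2 fold change -1.19, standard error 0.15, edgeR adjusted p = 1.19e-10) and rose with OD (1.78, standard error 0.095, adjusted p = 1.58e-25), the same pair of directions as DUSP8 with larger changes. DUSP7, of the same cytoplasmic group as DUSP6, fell with CoCl2 (-1.18, adjusted p = 1.28e-15) and stood at 0.27 in log2 with OD, where its libraries overlapped control. The 3 cytoplasmic ERK phosphatases therefore did not move as a block with CoCl2, since DUSP6 rose and DUSP7 and DUSP9 fell, under library-size scaling as well. SPRY1 had log2 fold changes of -0.57 with CoCl2 and 0.69 with OD and was called in the direct comparison (-1.26, adjusted p = 4.88e-17), and under library-size scaling with CoCl2 against control as well (-1.07). DUSP2, a nuclear phosphatase of immune cells, differed by -0.84 with CoCl2 (-1.35 and called under library-size scaling) and -0.66 with OD. SPRED2 and SPRED3 were not called in any comparison, with 0.44 and 0.90 for CoCl2 and 0.16 and 0.62 for OD, and SPRY3 was not counted in any library.

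Upstream of these inhibitors, 21 genes of the RAS-ERK cascade were tested. With CoCl2, 3 were upregulated, SHC1 (log2 fold change 1.63), MAP2K1 (1.54) and GRB2 (1.49), and none was downregulated (6 were lower at an unadjusted p under 0.05, and DESeq2 called none lower). The median of the list was 0.26, and it turned to -0.24 under library-size scaling, which also gave 2 higher and 3 lower. With OD only RPS6KA2 was called (1.71), around a median of 0.079. Its counts were low, at 21 to 30 in control libraries and 88 to 98 with OD. Of 20 genes of the p38, JNK and ERK5 cascades, 2 were upregulated and 4 downregulated with CoCl2. The largest falls were those of the kinases MAP2K6 (-2.81) and MAP2K5 (-2.26), at 11 to 27 and 11 to 26 counts in CoCl2 libraries. MAPK11 alone was called with OD (1.20). The medians were -0.38 and -0.092, and under library-size scaling 8 were lower and none was higher with CoCl2. These counts stand beside the 43.2% and 13.3% of all tested genes called in the same comparisons.

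Downstream, 10 genes induced by ERK outside these families and 13 immediate-early genes were tested, beside a background of 19.9% of all tested genes called higher with CoCl2 and 9.09% with OD. Of the 10, 6 were upregulated with CoCl2, FOSL1 most (log2 fold change 3.73), and CCND1, the cyclin of early cell cycle entry, was downregulated (-1.74), around a median of 1.33. Under library-size scaling these counts were 4 and 3. ETV5 rose to 29.0 to 32.1 CPM from 11.9 to 13.4 CPM in control, while its relative ETV4 was lower, at 23.3 to 25.4 CPM against 43.1 to 44.8 CPM (log2 fold change -0.84, short of the fold threshold). Under library-size scaling the calls swapped, with ETV5 at 0.76 and not called and ETV4 at -1.35 and called. With OD only ELK3 was called (1.39), from a low level of 0.578 ± 0.067 CPM (SD, n = 3). Of the immediate-early genes, 11 were upregulated with CoCl2 and 5 with OD, with medians of 2.46 and 0.87. None was downregulated with CoCl2 under TMM and 1 was under library-size scaling. FOS, which with JUN forms the AP-1 factor, held 4.25 to 4.82 CPM in control, 117 to 141 CPM with CoCl2 and 12.96 to 13.99 CPM with OD.

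**Figure D5:**
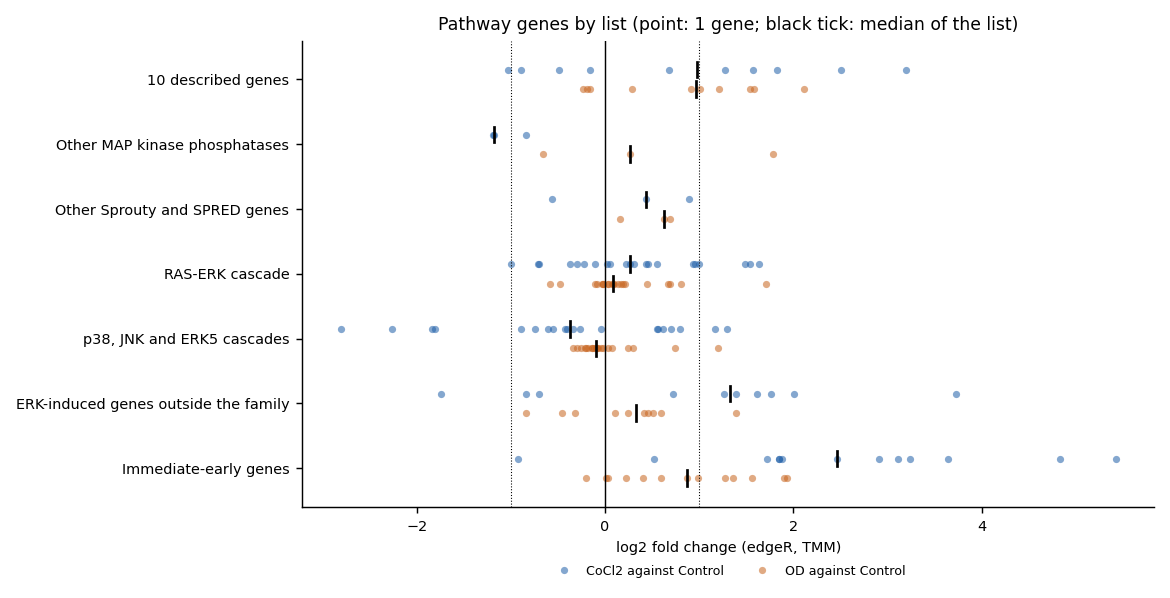
Log2 fold changes with CoCl2 and OD against control (horizontal axis) for the 10 described genes and 6 lists of pathway genes, each point a gene and each black tick the median of a list. The immediate-early genes lie mostly to the right of 1 with CoCl2, while the kinase cascades spread to both sides of 0, with CoCl2 from MAP2K6 at -2.81 to SHC1 at 1.63.

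The genes whose level followed a described gene most closely over the 9 libraries, among 10431 genes averaging 5 CPM or more, were listed for DUSP1, DUSP6 and SPRY4. For DUSP1 they were SNX9, SDCBP and FOS (Pearson r of log2 CPM 0.9992, 0.9992 and 0.9991). For DUSP6 they were UBN2, ABL2 and STRN (0.9992, 0.9981 and 0.9981), and for SPRY4 PLEKHM3, NR4A1 and PNPLA2 (0.9984, 0.9982 and 0.9981). The 9 libraries fall into 3 conditions, so these values describe the order and spacing of the 3 conditions and little else.

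Related rows were looked up only by symbols that extend that of a described gene, and apart from DUSP8P5 they held few reads. The gene opposite DUSP6 was not among them. The pseudogene DUSP5P1 had at most 3 counts in any library and DUSP5P2 had none, and SPRY4-AS1 had 1 to 9 counts. DUSP8P5 had 29 to 37 counts in control, 13 to 23 with CoCl2 and 19 to 38 with OD. The counts of DUSP8 in these conditions were 267 to 352, 104 to 166 and 478 to 705. An exact permutation test of log2 CPM with 3 libraries against 3 gave a two-sided p of 0.1, the smallest this design allows, for each of the 10 genes with either treatment against control.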

How the data were processed

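Messenger RNA of uCaco-2 in 3 conditions was measured in 3 replicates each. The authors checked reads with FastQC 0.11.9, trimmed them with cutadapt 2.10, mapped them with STAR 2.7.5b on GRCh38.p13 and counted them against GENCODE. Raw counts per symbol, without normalization, were deposited. How strand and multiply mapping reads were counted was not given in the sources used here, and 0 sample columns were left unused.

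TMM factors were computed with edgeR 4.0.16 (R 4.3.3), which kept 15944 of 60591 symbols by filterByExpr and fitted a robust quasi-likelihood model over 9 libraries with 1 mean per condition. P-values were adjusted by Benjamini-Hochberg over all tested genes. Standard errors were taken as the log2 fold change over the square root of F, and 95% intervals as 1.96 of them. Levels per kb used the merged exons of every transcript in GENCODE release 44. Exact permutation tests added 0.001 CPM, and correlations 0.5 CPM, before the log.

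The members and gene lists were chosen with earlier results of these data known, so no list was tested as a set. All 10 members are named. Each list could contribute up to 3 called rises and 3 called falls per comparison, averaging 1 CPM or more. DUSP2, SPRED2, SPRED3, SPRY3, ETV5, VIL1, KRT8, KRT18, KRT20, COL1A1, PTPRC and CDX1 were named after their values were seen. The fits were tested first on simulated data in which 200 genes changed with CoCl2. That test did not model the shift in composition of the CoCl2 libraries. At this depth, DUSP10 carried standard errors of 0.22 to 0.28, against 0.043 to 0.050 for DUSP5. Alternatives were fits on 6 libraries, DESeq2 1.42.0, RLE factors, library size only, no or a stricter count filter, a replicate block, each library left out, the adjusted p alone, glmTreat and thinned counts.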

Additional observations from a re-analysis of the deposited data

How the results depend on the processing

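The numbers of the 10 genes called were 6 with CoCl2, 5 with OD and 3 between the treatments. With the adjusted p alone they were 9, 10 and 8, and glmTreat, which tests against the fold threshold itself, gave 4, 3 and 3. The genes lost with glmTreat were DUSP10 and DUSP16 with CoCl2, and DUSP10 and DUSP1 with OD. Over all genes, the adjusted p alone gave 13260, 10466 and 13311 calls, and for OD glmTreat gave 965 and a minimum of 10 counts in every library 1134, in place of 2113. Library size alone lowered the share of higher genes among the calls from 46.0% to 23.9% with CoCl2 and from 42.4% to 18.3% between the treatments. It turned the difference between CoCl2 and OD to -0.15 for DUSP5 and -0.52 for SPRED1. The uncalled SPRED1 difference was also -0.039 without a count filter, -0.027 with at least 10 counts and -0.0075 to 0.068 over the fits without 1 library, the lowest without OD replicate 3. Leaving out each library in turn gave 5 or 6 of the 10 called with CoCl2, 4 to 6 with OD and 3 between the treatments, and 6908 to 7207, 2150 to 2274 and 6572 to 6917 genes in all. The genes involved were DUSP16 without CoCl2 replicate 2, DUSP1 without control or OD replicate 1, and DUSP8, which was gained without OD replicate 3.

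With the replicate number as a block, 6, 5 and 3 of the 10 were again called, and 6901, 2115 and 6568 genes in all. Same-numbered libraries of different conditions did not deviate together (correlations of -0.029 to 0.094), so the numbers were not taken as a pairing. DUSP10 is limited by depth, with 13 to 63 counts.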

Other observations

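The list of atypical dual-specificity phosphatases holds mostly smaller enzymes that lack the kinase-binding part of the MAP kinase phosphatases. Its genes changed with CoCl2 in 3 of 13 tested cases, beside 43.2% of all tested genes, and with OD in none by edgeR, beside 13.3% (9 of 13 had an unadjusted p under 0.05 with OD at smaller folds, and DESeq2 called none either). DUSP14 rose from 48.4 ± 2.40 CPM (SD, n = 3) to 188 ± 6.59 CPM with CoCl2 (log2 fold change 1.96, adjusted p = 8.06e-43) and was 67.0 ± 4.04 CPM with OD. STYXL1, a catalytically inactive relative, fell with CoCl2 (log2 fold change -1.61), and DUSP13 rose from 6 to 11 counts in control libraries to 29 to 44 counts.

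A further list held 8 genes of signaling feedback, not all of which act at the receptor itself. Of these, 5 were upregulated with CoCl2 and 2 with OD, beside 19.9% and 9.09% of all tested genes, and none was called lower. ERRFI1, an inhibitor of the EGF receptor kinase, rose from 39.0 ± 0.373 CPM to 286 ± 16.04 CPM with CoCl2 and 83.8 ± 3.05 CPM with OD (log2 fold changes 2.87 and 1.10). SOCS3, a feedback inhibitor of cytokine receptors, rose by 1.90 and 1.58 on the log2 scale. Under library-size scaling 4 of the 8 were upregulated and 1 was downregulated with CoCl2, and of the atypical phosphatases 2 and 5.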
